A study of Danio rerio with 15 samples.

Results

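Recovering testes of adult wild-type zebrafish were compared with control testes, to find which genes stood off the control level in testes that the sample titles place in recovery, the state that follows depletion. The samples were chosen by title. The 5 recovering testes (replicates 1 to 5) and 4 control testes (replicates 1, 3, 4 and 5) make 9 of the 14 samples analysed, out of 15 in the labels, and control replicate 2 was not analysed here. The 5 depleted testes entered no fit of this comparison. All groups share the wild-type genotype and the adult age, and none carries a transgene. The labels name neither the agent that depleted the testes nor the time allowed for recovery. The design text calls the samples biological replicates and does not say whether testes were pooled. The series title points to the hormone FSH (follicle-stimulating hormone), to androgens and to retinoic acid.

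In the fish testis, germ cells divide and differentiate inside cysts formed by Sertoli cells, and pass from spermatogonia through meiotic spermatocytes to spermatids and sperm. Leydig cells lie between the tubules and make androgens and the hormone Insl3, and follicle-stimulating hormone acts on both somatic cell types in fish. Retinoic acid, made from retinol by retinol and retinal dehydrogenases and broken down by enzymes of the CYP26 family, promotes the differentiation of germ cells.

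The libraries held 8617589 to 48646941 counts in controls and 8661834 to 25035915 in recovering testes, and control replicate 5 was the deepest. Markers of the testis were present in all 9 libraries. The germ cell gene DDX4 stood at 1011 CPM or more, the meiotic gene SYCP1 at 1776 CPM or more, the Leydig hormone insl3 at 471 CPM or more, and the Sertoli cell gene gsdf at 623 CPM or more. CPM are counts scaled to a common library total after edgeR's TMM correction for composition. Mitochondrial genes held 1.77% to 2.48% of control counts and 2.58% to 5.30% of recovering counts, and their part in the results was not tested. Over the genes that rose, recovering replicate 3 was the recovering library nearest to the controls. Its median log2 distance from the control mean was 0.63, against 0.90 to 1.40 in the other recovering libraries. Those genes were picked for their difference in these same libraries. Over other genes that library lay beyond the controls. Its summed level of early germ cell genes was 11434.5 CPM, against 8201 to 9240 CPM in controls. For cell division genes it was 8677 CPM, against 7162 to 7953 CPM in controls.

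Recovering testes differed from controls in 1254 of 20867 genes tested, or 6.01% (edgeR quasi-likelihood test, Benjamini-Hochberg adjusted p under 0.05). Of these, 867 were higher in recovering testes, which is 4.15% of the genes tested, and 387 were lower, which is 1.85%. The rises were the larger changes. Their median log2 fold change was 1.19, with quartiles of 0.83 and 1.66, and 550 of them exceeded 1. The falls had a median of -0.64, with quartiles of -0.83 and -0.52, and 57 of them went beyond 1 on the log2 scale. Over all genes tested the median was 0.01. The genes that rose were less abundant in controls than those that fell, with a median control level of 20.1 CPM, while those that fell had a median of 64.0 CPM and all tested genes one of 13.7 CPM. As a share of all counts, the genes that rose held 5.01% ± 0.483 (SD, n = 4) of control libraries and 10.2% ± 1.89 (SD, n = 5) of recovering ones. Of them, 782 had every recovering library above every control, and of the falls 371 had every recovering library below. Among all genes tested, 6.99% lay wholly above the controls and 5.56% wholly below. No called gene had 0 counts in every library of either group. Scaling by library totals instead gave 695 rises and 590 falls, a smaller excess of rises.

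**Figure D1:**
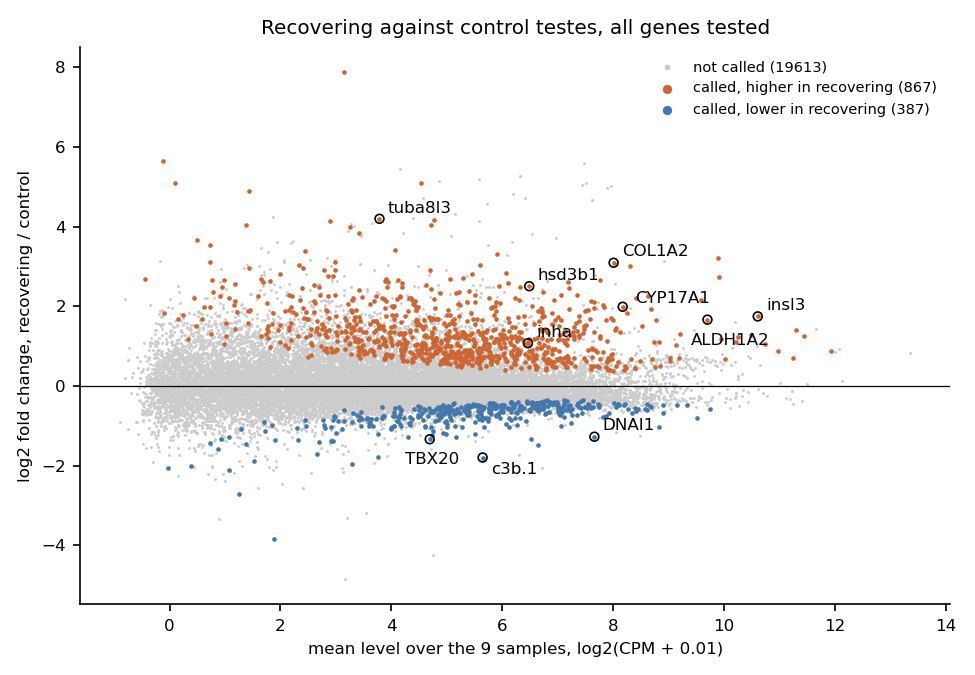
Each point is 1 of the 20867 genes tested. The horizontal axis gives the mean level over the 9 samples as log2(CPM + 0.01) and the vertical axis the log2 fold change of recovering over control testes. The 867 rises (orange) reach further from 0 than the 387 falls (blue), and 10 of the genes described in the text are circled.

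Few calls withstood the loss of a control. Leaving out a control library left 32 calls without replicate 1, 8 without replicate 3, 18 without replicate 4 and 132 without replicate 5. Leaving out a recovering library left 221 calls without replicate 1, 927 without replicate 2, 259 without replicate 4 and 1022 without replicate 5, and gave 2710 without replicate 3. In each of these 9 fits, every one of the 1254 genes that was still tested kept the sign of its log2 fold change. This could hardly be otherwise, because 782 of the rises and 371 of the falls had no overlap between the groups. The kept signs are thus no test of direction. The values of single genes below are therefore to be read by their size and spread. Most calls by the adjusted p needed each control, and recovering replicates 1 and 4.

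**Figure D2:**
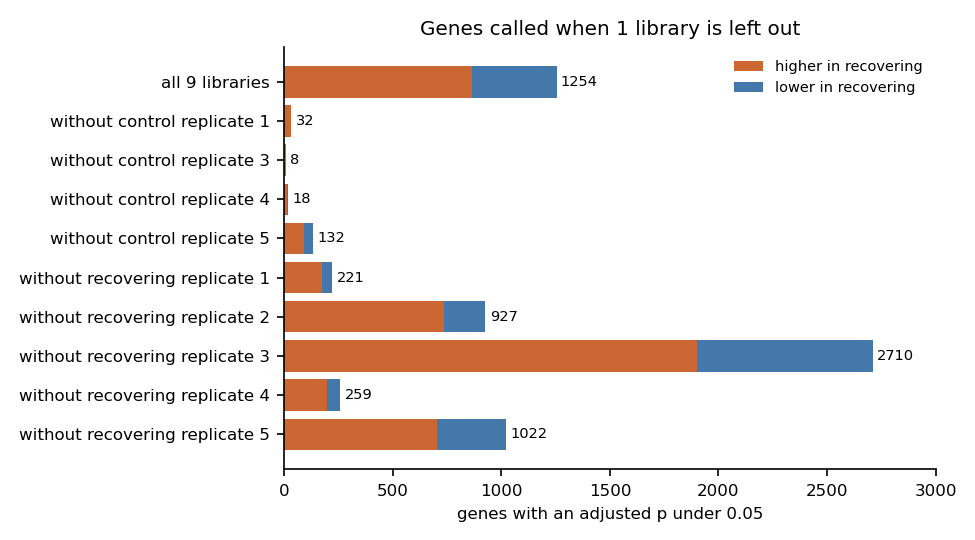
Bars give the number of genes with an adjusted p under 0.05 with all 9 libraries and with 1 library left out, split into genes higher (orange) and lower (blue) in recovering testes. The count lies between 8 and 132 without a control and is highest, at 2710, without recovering replicate 3.

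The calls that withstood the loss of any single library included the androgen synthesis gene CYP17A1 and the Leydig cell hormone gene insl3. Only 8 of the 1254 genes were called in all 9 of those fits. They were CYP17A1, insl3, c3b.1, FABP7, GJA1, FEZ1, EFHD2 and slc13a5b, and the last 5 are named after their values had been seen. FABP7, a fatty acid binding protein, had the lowest adjusted p of the comparison, 0.000889 in the edgeR test. It stood at 39.6, 29.3, 23.8 and 36.5 CPM in control replicates 1, 3, 4 and 5, and at 188, 175, 139, 166 and 165 CPM in recovering replicates 1 to 5. The groups were far apart and each was narrow. Values are given in this order of replicates from here on. GJA1, the gap junction protein connexin 43, had 126, 77.5, 99.5 and 148 CPM in controls and 663, 468, 352, 476 and 669 CPM in recovering testes, a log2 fold change of 2.22 ± 0.25 (SE). The citrate transporter gene slc13a5b fell from 3.76 to 5.00 CPM in controls to 0.418 to 0.945 CPM in recovering testes, with a log2 fold change of -2.72 ± 0.29 (SE).

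Of the genes of Leydig cells and steroid synthesis, 18 could be tested, out of 20 identifiers on the list, and 5 rose. That is 27.8% against 4.15% of all genes, and the median of the list was 0.94 on the log2 scale. On this list and on those of hormone receptors, Sertoli cells and stroma, edgeR, DESeq2 and limma-voom each called 0 genes downward, and 0 were lower at an unadjusted edgeR p under 0.05. On the lists of retinoic acid and growth factor genes, edgeR and limma-voom called 0 downward. DESeq2 called 1 on each, and 1 and 2 genes were lower at an unadjusted p under 0.05. CYP17A1, the enzyme that turns progestogens into androgen precursors, had 108, 103, 85.7 and 139 CPM in controls and 461, 417, 359.5, 464 and 459.7 CPM in recovering testes. All recovering values lay within 359.5 to 464 CPM and none came near a control value. The rise was 3.96-fold, or 1.99 ± 0.16 (SE) on the log2 scale (edgeR adjusted p = 0.00129). The Leydig cell hormone gene insl3 had 777, 471, 619.9 and 840.0 CPM in controls and 2289, 2192, 1845, 2479 and 2541 CPM in recovering testes, which do not overlap. Its log2 fold change was 1.75 ± 0.19 (SE), with an edgeR adjusted p of 0.00766. In bulk tissue, a larger share of Leydig cells and more RNA of these genes per cell cannot be told apart.

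Some other steps of the pathway were also higher, with wider spread. Of the 18 genes of the list tested, 13 were not called. In all, 14 had a log2 fold change above 0 and 4 below. The dehydrogenase gene hsd3b1 stood at 21.2, 22.2, 20.04 and 35.9 CPM in controls and at 151, 139.8, 77.5, 127 and 214 CPM in recovering testes, a log2 fold change of 2.50 ± 0.29 (SE). Its lowest recovering value was more than its highest control value, and its call was lost without control replicate 3. HSD11B2, which acts in the last steps of androgen synthesis in fish and also inactivates cortisol, had 112, 147, 129 and 118 CPM in controls and 1101, 415, 293, 570.0 and 662 CPM in recovering testes. Recovering replicate 1 was the highest there and replicate 3 the lowest, and the groups did not overlap (log2 fold change 2.27 ± 0.34, SE). FDXR, which passes electrons to mitochondrial steroid enzymes, was higher by 0.93 ± 0.22 (SE) on the log2 scale. STAR, which carries cholesterol into mitochondria, had 288, 122, 173 and 316 CPM in controls and 492, 308, 387, 449 and 616 CPM in recovering testes. Those groups overlapped in 1 recovering library, and STAR was not called (edgeR adjusted p = 0.0696). The hydroxylase gene cyp11c1 was not called either, at 0.91 (edgeR adjusted p = 0.0826). Without control replicate 3, 2 genes of the list were called, and across all fits without 1 library the number ran from 2 to 7.

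The summed level of the 20 identifiers of that list was 1641, 1058, 1268 and 1800.4 CPM in controls and 4915, 3886, 3360.2, 4632 and 5283 CPM in recovering testes. In depleted testes, set against the same 4 control libraries in a fit of their own that called 61.1% of 20372 genes, the log2 fold changes were 2.997 for CYP17A1, 2.67 for insl3, 3.97 for hsd3b1 and 2.80 for HSD11B2. Both comparisons share their controls, so these values are set side by side without a test.

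**Figure D3:**
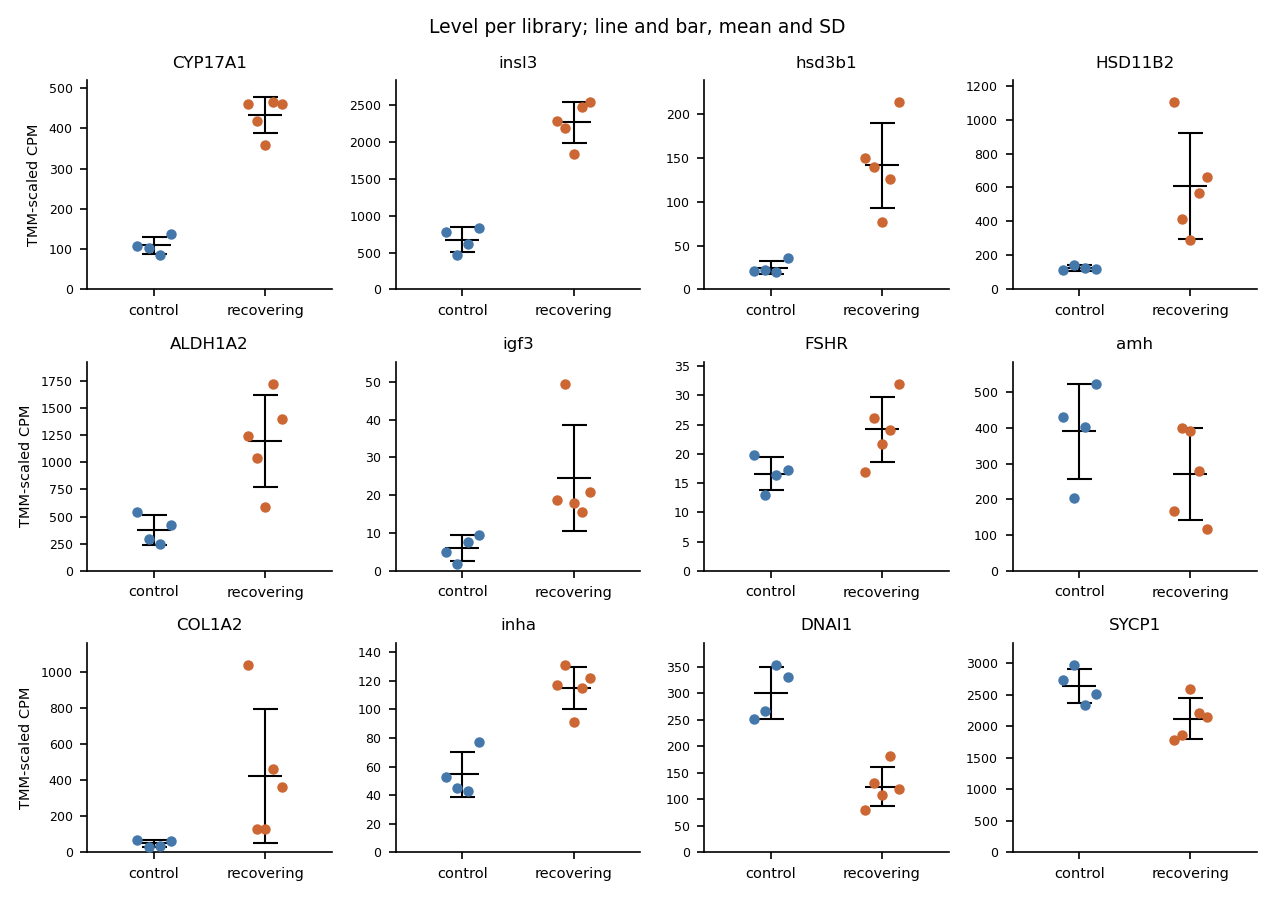
Each panel shows 1 gene, with 1 point per library in TMM-scaled CPM from 0, and the mean and SD of 4 control (blue) and 5 recovering (orange) testes. CYP17A1, insl3, hsd3b1, HSD11B2, ALDH1A2, igf3, COL1A2 and inha have every recovering library above every control, DNAI1 has every recovering library below, and FSHR, amh and SYCP1 overlap.

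Receptors for the gonadotropins were not among the genes called. FSHR, the receptor for follicle-stimulating hormone, had 19.9, 12.9, 16.5 and 17.3 CPM in controls and 17.0, 26.2, 21.8, 24.0 and 31.9 CPM in recovering testes. Recovering replicate 1 lay among the controls, and the difference was 0.54 ± 0.20 (SE) on the log2 scale (edgeR adjusted p = 0.119). The luteinizing hormone receptor gene lhcgr was at 2.25 to 6.66 CPM in controls and 2.99 to 11.9 CPM in recovering testes, which overlapped. Receptors of female sex steroids did rise, and 4 of the 14 hormone receptor genes tested were called upward, or 28.6% against 4.15% of all genes, at a list median of 0.50 on the log2 scale. ESR1, an estrogen receptor, had 3.77, 2.15, 4.26 and 3.67 CPM in controls and 12.6, 7.71, 6.30, 8.97 and 11.3 CPM in recovering testes, without overlap (log2 fold change 1.42 ± 0.28, SE). Both identifiers that carry the estrogen receptor symbol ESR2, which here stands without a paralog letter, rose as well. ESR2 (ENSDARG00000016454) changed by 1.39 and ESR2 (ENSDARG00000034181) by 0.76 on the log2 scale. PGR, the progesterone receptor, rose from 9.52 to 22.0 CPM in controls to 20.7 to 51.4 CPM in recovering testes, where the groups overlapped, with a log2 fold change of 1.18. None of these 4 calls was made without control replicate 1, 3, 4 or 5, or without recovering replicate 1 or 4.

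Among retinoic acid genes, ALDH1A2 and 1 of the RDH10 identifiers, both for synthesis enzymes, rose. ALDH1A2, the retinal dehydrogenase, had 544, 292, 248 and 427 CPM in controls and 1246, 1039.7, 586, 1720.3 and 1394 CPM in recovering testes. Recovering replicate 3 came closest to the controls but stayed above them. The rise was 3.17-fold, or 1.66 ± 0.33 (SE) on the log2 scale (edgeR adjusted p = 0.0300). RDH10 (ENSDARG00000058730), a retinol dehydrogenase, had 24.3, 13.8, 16.4 and 18.5 CPM in controls and 79.0, 48.9, 45.9, 104 and 271 CPM in recovering testes. Recovering replicate 5 was far above the rest, and the log2 fold change was 2.59 ± 0.53 (SE), and 1.93 without that library. The other identifier of that symbol, RDH10 (ENSDARG00000012369), stayed at 19.5 to 21.1 CPM in controls and 19.9 to 26.2 CPM in recovering testes.

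The breakdown enzymes were not called. CYP26A1 had 74.6, 50.1, 51.2 and 112 CPM in controls and 55.0, 85.4, 104, 45.0 and 88.0 CPM in recovering testes, which overlapped fully, and its log2 fold change of 0.07 ± 0.30 (SE) changed sign with the scaling. CYP26B1 stood at 2.38 to 7.19 CPM in controls and 6.18 to 24.8 CPM in recovering testes, at a log2 fold change of 1.77 with an edgeR adjusted p of 0.0506. Over the 24 retinoic acid genes tested, out of 27 identifiers, 2 rose, a share of 8.33% close to the 4.15% of all genes in so short a list, and the median was 0.85 on the log2 scale. The 2 calls were lost without any 1 of the 4 controls, and without recovering replicate 1 or 4. Against the same controls, depleted testes had log2 fold changes of 3.33 for ALDH1A2, 3.77 for RDH10 (ENSDARG00000058730), 4.49 for CYP26B1 and 0.47 for CYP26A1. CYP26A1 was not called there (SE 0.45, edgeR adjusted p = 0.37).

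Sertoli cell genes and local growth factors rose in part. Of 14 Sertoli cell genes tested, 2 rose, at a list median of 0.93 on the log2 scale, and of 25 growth factor genes 4 rose, at a median of 0.64. These are shares of 14.3% and 16%, against 4.15% of all genes. The lists share members, so the 2 shares are not separate results. Both Sertoli cell genes called, igf3 and inha, are also on the growth factor list. The called gene insl3 is on the growth factor list and on that of Leydig cells. The gonadal insulin-like growth factor gene igf3, which follicle-stimulating hormone induces in zebrafish testis, had 5.11, 1.92, 7.68 and 9.58 CPM in controls and 18.7, 49.5, 17.99, 15.6 and 21.0 CPM in recovering testes. The groups did not overlap, and recovering replicate 2 stood alone at the top. It differed by 1.99 ± 0.48 (SE) on the log2 scale (edgeR adjusted p = 0.0441), and it was called in 1 of the 9 fits without a library. The inhibin subunit gene inha had 53.1, 45.2, 43.3 and 77.2 CPM in controls and 117, 131, 91.3, 115 and 122 CPM in recovering testes (log2 fold change 1.07 ± 0.18, SE). The other growth factor gene called beside igf3, inha and insl3 was igf2b, an insulin-like growth factor. It changed by 1.70 ± 0.31 (SE), from 10.3 to 14.2 CPM in controls to 17.8 to 58.4 CPM in recovering testes.

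Other products of Sertoli cells did not pass the edgeR test. Of the 14 Sertoli cell genes tested, DESeq2 called 6 upward and limma-voom 5, against 2 with edgeR. Of all 20867 genes tested, DESeq2 called 2191 upward and limma-voom 1244. The anti-Müllerian hormone gene amh, whose product restrains the differentiation of spermatogonia, had 431, 205, 402 and 523 CPM in controls and 168, 401, 392, 278 and 119 CPM in recovering testes, with wide overlap (log2 fold change -0.52 ± 0.38, SE). The gene gsdf, a growth factor of the gonadal soma, had 700.0, 623, 875 and 797 CPM in controls and 1059, 1960.3, 1291, 2000.0 and 924 CPM in recovering testes. All of its recovering values were above the controls, yet its edgeR adjusted p was 0.0518 at a log2 fold change of 0.95. The transcription factor gene DMRT1 lay at 499 to 605 CPM and 464 to 563 CPM. Of the SOX9 identifiers, SOX9 (ENSDARG00000003293) differed by 1.55 (edgeR adjusted p = 0.0591) and SOX9 (ENSDARG00000043923) by 0.30. No Sertoli cell gene was called without control replicate 1, 3 or 4. Without any 1 of those controls 1 growth factor gene was called.

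Early germ cell genes were not called in either direction. Of the 16 tested genes of early germ cells, edgeR called 0, DESeq2 0 and limma-voom 0, and 0 had an unadjusted edgeR p under 0.05. The list's median log2 fold change was -0.12, with 6 genes above 0 and 10 below. DDX4, the germ cell RNA helicase Vasa, had 1121, 1183, 1057 and 1169 CPM in controls and 1202, 1793, 1839, 1116 and 1011 CPM in recovering testes. PIWIL1 and PIWIL2, which bind the small RNAs that silence transposons, differed by -0.14 and 0.27 on the log2 scale, and DAZL, a translational regulator of germ cells, by -0.26. For DDX4, PIWIL2 and DAZL the recovering libraries spread more widely than the controls, with replicates 2 and 3 the highest.

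Of 26 cell division genes tested, edgeR called 0, DESeq2 2 downward and limma-voom 2 downward. At an unadjusted edgeR p under 0.05 there were 5, all of them lower in recovering testes. Of all 20867 genes tested, 5687 had an unadjusted edgeR p under 0.05, in either direction. DESeq2 called 1200 of all genes downward and limma-voom 734. The proliferation marker mki67 had 857, 818, 754 and 732 CPM in controls and 698, 749, 1027, 649 and 696 CPM in recovering testes, where replicate 3 was highest. PCNA, the sliding clamp of DNA replication, lay at 343 to 406 CPM in controls and 319 to 500.2 CPM in recovering testes.

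In the edgeR test a minority of meiotic and later germ cell genes fell. All 18 tested meiotic genes had a log2 fold change below 0, with a median of -0.34, and 2 of them fell, or 11.1% against 1.85% of all genes. On the meiotic and the spermatid list, edgeR, DESeq2 and limma-voom called 0 genes upward, and 0 were higher at an unadjusted p under 0.05. Downward, DESeq2 called 6 of the meiotic and 10 of the spermatid genes, and limma-voom 5 and 9. At an unadjusted edgeR p under 0.05, 8 and 11 were lower. Of all 20867 genes tested, DESeq2 called 1200 downward and limma-voom 734. In either direction, 5687 of all genes had an unadjusted edgeR p under 0.05. The crossover gene mlh3 had 58.8, 62.1, 59.6 and 54.9 CPM in controls and 38.5, 42.9, 51.3, 36.2 and 39.5 CPM in recovering testes, without overlap (log2 fold change -0.50 ± 0.12, SE). PSMC3IP, a partner of the meiotic recombinase DMC1, changed by -0.49 ± 0.12 (SE). DMC1 itself had 201, 359, 323 and 247 CPM in controls and 106, 194, 202, 166 and 145 CPM in recovering testes. Recovering replicate 3 reached just above control replicate 1, and DMC1 was not called (log2 fold change -0.80, edgeR adjusted p = 0.0578). SYCP1 and SYCP3, parts of the synaptonemal complex that joins paired chromosomes, were at -0.32 and -0.34 and not called. Recovering replicate 3 was at 489.5 CPM for SYCP3, above the highest control at 463 CPM.

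Of the 23 tested genes of spermatids and sperm, 5 fell, or 21.7% against 1.85% of all genes, and all 23 had a log2 fold change below 0, with a median of -0.40. DNAI1, an intermediate chain of the dynein arms that drive the sperm tail, fell most, from 252, 266, 353 and 330.4 CPM in controls to 79.6, 131, 109, 182 and 119.6 CPM in recovering testes. Its highest recovering value was below its lowest control value (log2 fold change -1.28 ± 0.21, SE; edgeR adjusted p = 0.0224). DRC1, of the complex that links axonemal microtubules, had 435, 467, 425 and 381 CPM in controls and 250.1, 265, 302, 308 and 312 CPM in recovering testes (log2 fold change -0.57 ± 0.11, SE). The other called members were spef1, SPATA4 and spag17, with log2 fold changes of -0.56, -0.55 and -0.52. The summed level of the list was 5393, 5246, 4986 and 4590.0 CPM in controls and 3193, 3566, 3999, 4215 and 4093 CPM in recovering testes, without overlap. Against the same controls, depleted testes had log2 fold changes (± SE) of -3.91 ± 0.86 for DNAI1, -3.61 ± 1.15 for DRC1, -1.92 ± 0.27 for mlh3 and -3.04 ± 1.13 for SYCP1. Across the fits without 1 library, 0 to 7 of these spermatid genes and 0 to 5 of the meiotic genes were called.

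**Figure D4:**
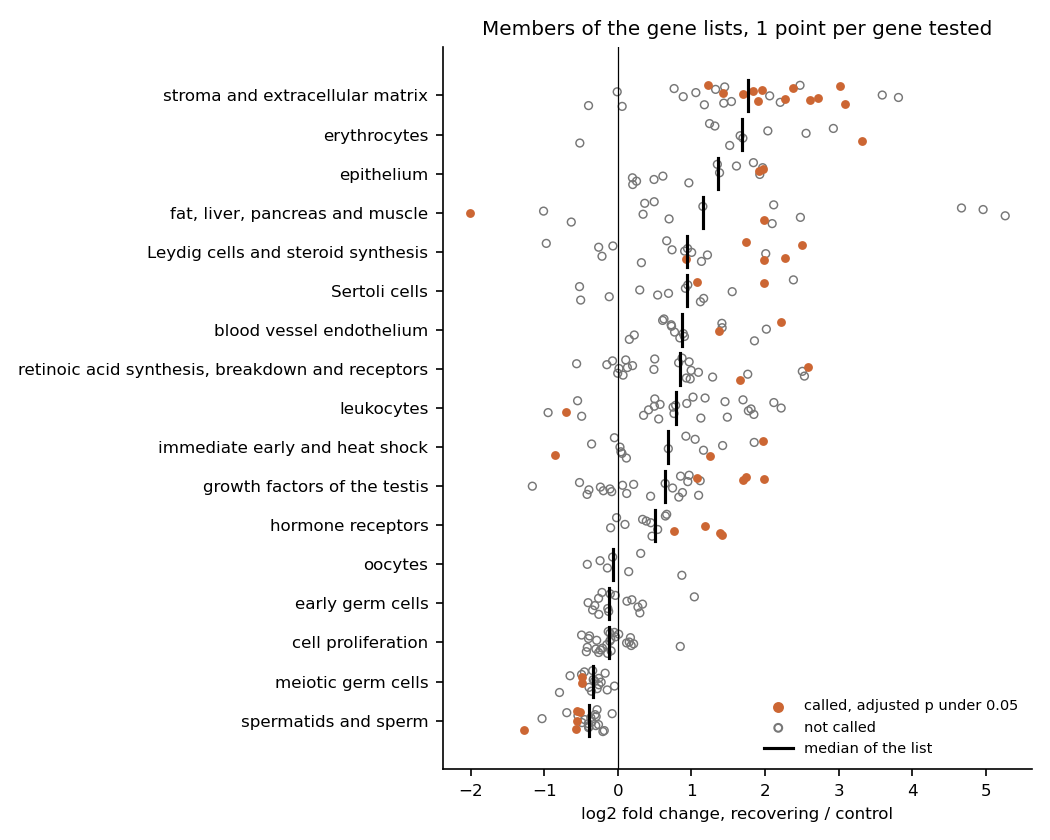
Each point is 1 tested member of a gene list, placed by its log2 fold change of recovering over control testes. Filled points are called at an adjusted p under 0.05 and black bars are list medians, which run from -0.40 for spermatids and sperm to 1.77 for stroma and extracellular matrix.

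The list with the most rises was that of connective tissue. Of 28 genes of stroma and extracellular matrix, 12 rose, or 42.9% against 4.15% of all genes, and the median was 1.77 on the log2 scale. COL1A2, a chain of type I collagen, had 69.8, 32.1, 35.9 and 60.6 CPM in controls and 1034, 127, 131, 463 and 364 CPM in recovering testes. The groups did not overlap, but recovering replicate 1 was about as high as the other recovering libraries combined. The rise was 8.53-fold, or 3.09 ± 0.64 (SE) on the log2 scale (edgeR adjusted p = 0.0315), and the log2 fold change was 2.43 without recovering replicate 1. The partner chain col1a1a changed by 3.02 ± 0.59 (SE), with 46.0 to 84.0 CPM in controls and 159 to 1129.8 CPM in recovering testes. FN1 (ENSDARG00000006526), a fibronectin gene, changed by 2.72, or 2.12 without recovering replicate 1, and COL6A3 by 2.62. Another identifier on the list, FN1 (ENSDARG00000019815), is not described here. The matrix-degrading protease gene MMP2 was more even across libraries, with 129.9, 105, 105 and 106 CPM in controls and 418, 437, 198, 412 and 345 CPM in recovering testes (log2 fold change 1.70 ± 0.22, SE).

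The summed level of the stroma list was 2264, 1323, 1583 and 2310.5 CPM in controls and 13155, 3739, 3014, 8252 and 7286 CPM in recovering testes. Recovering replicate 1 was the highest and replicates 2 and 3 the lowest. In fits without 1 library, the number of stroma genes called ran from 0, without control replicate 3 or 4, to 22. Leaving out any 1 library, the median of the list ranged from 1.42 to 1.95. Depleted testes, against the same controls, had log2 fold changes of 4.84 for COL1A2, 4.47 for col1a1a and 3.50 for MMP2.

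**Figure D5:**
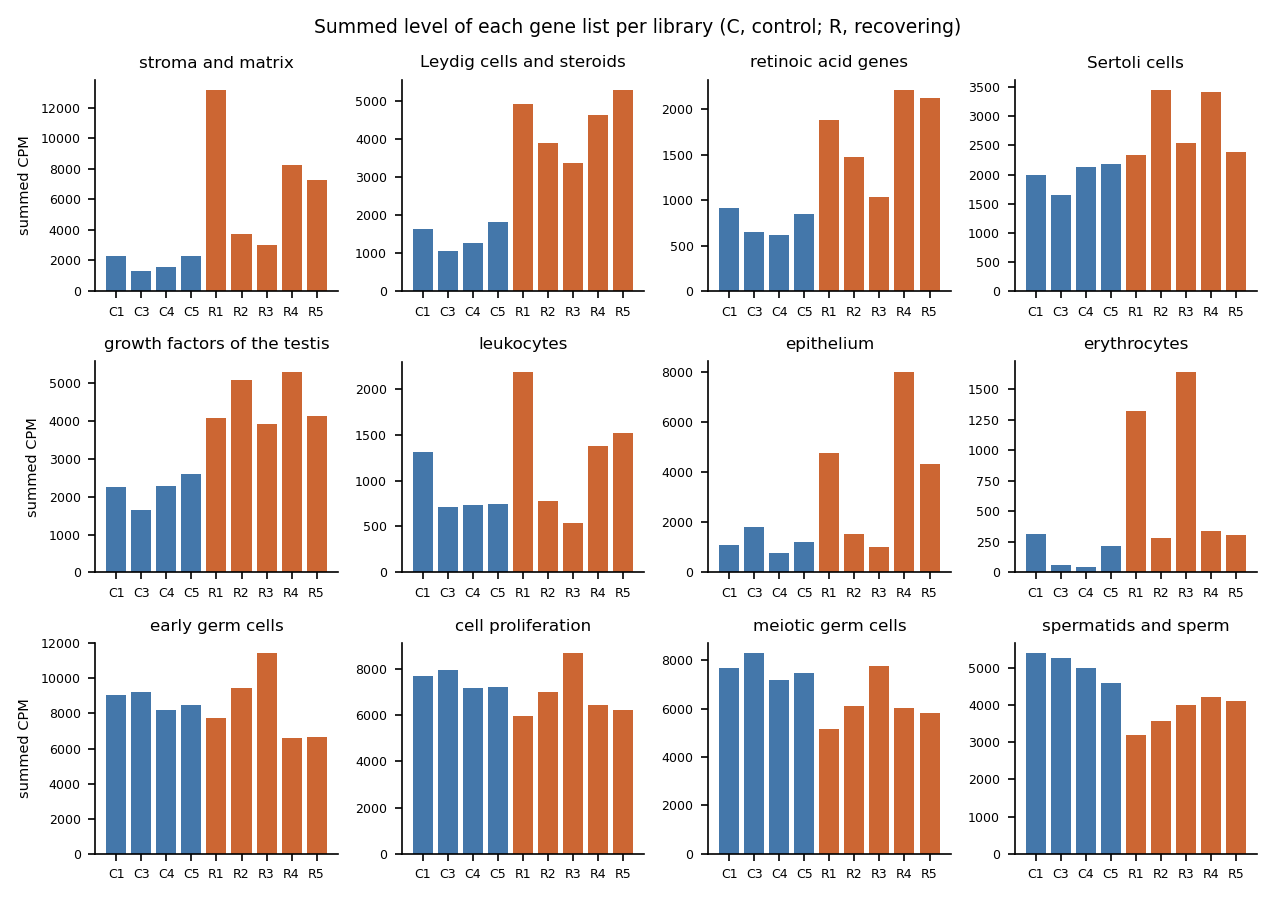
Bars show the summed CPM, from 0, of 12 gene lists in each control (C, blue) and recovering (R, orange) library, each panel on its own scale. Stroma and Leydig cell sums are higher in every recovering library than in every control, spermatid sums are lower in every one, and early germ cell sums overlap.

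Markers of other cell types that a dissected testis can carry also differed among the libraries. Of 25 leukocyte genes, edgeR called 0 upward and 1 downward, and the list's median was 0.78. At an unadjusted edgeR p under 0.05, 12 were higher and 3 lower. DESeq2 called 8 upward and 1 downward, and limma-voom 1 in each direction. Of all 20867 genes tested, 5687 had an unadjusted edgeR p under 0.05, in either direction. DESeq2 called 2191 of all genes upward and limma-voom 1244. The summed level of the leukocyte list was 716 to 1313 CPM in controls and 533 to 2187 CPM in recovering testes. The single fall in edgeR was RAG2, part of the recombinase of lymphocytes, or 4% of the list against 1.85% of all genes. RAG2 was at 131 to 205 CPM in controls and 71.1 to 119 CPM in recovering testes. Its log2 fold change in depleted testes, against the same controls, was -2.90. A change in lymphocytes was not tested. Of 16 endothelial genes, 2 rose, or 12.5% against 4.15% of all genes: sox18 by 2.22 and SOX7 by 1.37, both transcription factors of vessels. Of 14 epithelial genes, the keratin genes krt4 and krt18a.1 rose, by 1.98 and 1.92, which is 14.3% of the list against 4.15% of all genes. The epithelial list's summed level was 4787, 1526, 1015, 8025 and 4326 CPM in recovering replicates 1 to 5, against 766 to 1821 CPM in controls. Recovering replicates 2 and 3 thus lay within the control range. The groups overlapped for sox18 and krt4, and did not for SOX7 and krt18a.1. The median of the epithelial list was 1.37 with all libraries and -0.27 without recovering replicate 4. Of 10 red blood cell genes, alas2, the first enzyme of haem synthesis in these cells, rose by 3.31, or 3.98 without control replicate 5. That is 10% of the list against 4.15% of all genes. The summed level of the red blood cell list was 44.2 to 318 CPM in controls. It was 1323, 283, 1646, 341 and 308 CPM in recovering replicates 1 to 5, highest in replicate 3, where the stroma sum was lowest. No gene of these lists was at 0 in all 9 libraries. Oocyte genes overlapped between the groups, at a summed level of 56.3 to 62.2 CPM in controls and 47.5 to 65.4 CPM in recovering testes, with 0 of 7 called by edgeR, DESeq2 or limma-voom and 0 at an unadjusted p under 0.05. The part of these cells in the rises described above was not tested.

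CCNG1, PHLDA3 and casp8, which act in the cell cycle and in cell death, are given as single genes that rose. They are members of a longer gene list, named because they were called, and other members of it are not reported here. They do not describe that list as a whole, and 4.15% of all genes tested rose. The cyclin gene CCNG1 had 141, 122, 126 and 150.04 CPM in controls and 426, 279, 239, 539 and 376 CPM in recovering testes, without overlap (log2 fold change 1.47 ± 0.23, SE; edgeR adjusted p = 0.0199). PHLDA3, an inhibitor of the kinase Akt, and casp8, an apoptosis protease, rose by 1.90 and 1.18. For casp8 control replicate 3, at 29.4 CPM, lay above recovering replicate 2, at 24.7 CPM, and the 3 calls were lost without control replicate 3.

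The 10 largest rises named by rule ran from 3.02 to 4.20 on the log2 scale. They were taken among called genes with a mean of at least 5 CPM, no overlap and a plain symbol, not a clone-type name. They included genes for the folding and cross-linking of collagen. SERPINH1 (ENSDARG00000019949), the collagen chaperone, had 3.77, 2.49, 2.59 and 2.21 CPM in controls and 105, 34.3, 17.6, 54.4 and 13.3 CPM in recovering testes, a log2 fold change of 4.04 ± 0.63 (SE), or 3.43 without recovering replicate 1. PLOD2, which hydroxylates collagen lysines, changed by 3.40, but by 2.30 without recovering replicate 1, where its call was lost. Another of the 10 was the protein disulfide isomerase gene pdia2, which changed by 3.85. It had 0.792 to 1.78 CPM in controls and 2.40 to 35.6 CPM in recovering testes, with the highest values in replicates 1, 2 and 5. The summed level of fat, liver, pancreas and muscle genes was also highest in those libraries, and a link was not tested. The largest change was that of tuba8l3, an alpha-tubulin gene, with 1.66, 1.13, 0.835 and 1.47 CPM in controls and 43.1, 18.04, 15.0, 34.3 and 8.56 CPM in recovering testes. Its recovering values differed several-fold among themselves, yet all were above the controls (log2 fold change 4.20 ± 0.52, SE; edgeR adjusted p = 0.00968). ELOVL5, an elongase of long-chain fatty acids, had 7.85 to 12.9 CPM in controls and 41.2 to 121 CPM in recovering testes (log2 fold change 3.04). NR0B2, a nuclear receptor that represses other receptors, changed by 3.04, or 3.74 without control replicate 5, and jac7 by 3.98. The others of the 10 were alas2, COL1A2 and col1a1a.

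The 10 largest falls by the same rule were smaller, from -1.80 to -1.20. The complement gene c3b.1 had 97.3, 62.7, 101 and 71.0 CPM in controls and 14.9, 25.4, 19.8, 30.9 and 28.2 CPM in recovering testes, without overlap (log2 fold change -1.80 ± 0.23, SE; edgeR adjusted p = 0.0102). TBX20, a T-box transcription factor, had 34.2, 36.2, 34.3 and 51.0 CPM in controls and 17.0, 15.7, 20.4, 12.6 and 11.2 CPM in recovering testes (log2 fold change -1.34 ± 0.20, SE). IGF2R, which in mammals clears insulin-like growth factor and carries lysosomal enzymes, had 213, 197, 79.2 and 66.9 CPM in controls and 58.3, 51.3, 66.7, 36.4 and 61.0 CPM in recovering testes. The control libraries themselves fell apart there, with replicates 1 and 3 high and replicates 4 and 5 just above the recovering range, and the log2 fold change was -1.34 ± 0.35 (SE). FAM219A showed the same kind of spread, at 29.2, 8.49, 8.85 and 42.3 CPM in controls and 6.04 to 7.17 CPM in recovering testes (log2 fold change -1.78). The others were lrrc51 at -1.49, the kinase gene mapk13 at -1.30, the synaptic vesicle gene RIMS1 at -1.29, DNAI1, the integrin activator gene FERMT1 at -1.23 and kbtbd7 at -1.20.

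Among immediate early and heat shock genes, 15 were tested, 2 rose and 1 fell, shares of 13.3% and 6.67% against 4.15% and 1.85% of all genes. The chaperone gene hsp70.3 and the transcription factor gene EGR2 changed by 1.98 and 1.25, at means under 5 CPM in both groups. FOSB, an immediate early transcription factor, had 27.2, 42.3, 29.4 and 27.4 CPM in controls and 13.8, 17.0, 20.4, 19.3 and 16.8 CPM in recovering testes (log2 fold change -0.85 ± 0.18, SE). Of 15 genes of fat, liver, pancreas and muscle, the lipoprotein lipase gene LPL rose by 1.98 and the muscle myosin gene myhz1.1 changed by -2.02, the latter at under 5 CPM throughout. Each is 6.67% of that list, against 4.15% of all genes that rose and 1.85% that fell. The summed level of that list was 152, 73.3, 245 and 257 CPM in controls and 1350, 1729, 148, 280 and 3790 CPM in recovering testes.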

How the data were processed

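Counts per Ensembl gene identifier were deposited as 1 table of whole numbers per sample, from libraries that the labels' protocols describe as TruSeq RNA v2 libraries of testis RNA. The submitters' processing notes name FastQC 0.10.1, TopHat2 2.0.5, SAMtools 0.1.18, HTSeq and DESeq and the build Zv9, without role or order. Strand and the treatment of reads shared by paralogs are not given in the sources used here, so values of near-identical genes, such as the tubulins, and of overlapping or antisense genes are uncertain. Symbols came from a table of gene names, which has one for 21948 of 33752 identifiers. Rows that name no gene were not in the tables.

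The counts of the 4 control and 5 recovering libraries were fitted alone with edgeR 4.0.16 in R 4.3.3 (filterByExpr, TMM, quasi-likelihood F-test, group as the only factor). Tested genes held 99.8% of counts. A gene was called at a Benjamini-Hochberg adjusted p under 0.05 over all genes tested. The standard error is the log2 fold change divided by the square root of F. A count of 3, the limit that a count of 0 allows, equals 0.0586 to 0.369 CPM, for counting error only. P-values measure the spread between these samples. No 2 libraries of a group agreed within sampling noise. The fit was tested on simulated data.

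Genes were named by rule. The 10 largest rises and falls were taken among called genes with a mean of at least 5 CPM, no overlap and a plain symbol. Clone-type names, such as those with a colon, were left out there. Up to 4 called members per list with a mean of at least 1 CPM were added. So was a panel of 26 genes, of which 3 matched no identifier. Results of some genes are not reported here. Further called members of a list are given where the text accounts for the whole list. The members and lists were chosen with earlier results of these data known. Alternatives were RLE and total-count scaling, other filters, DESeq2 1.42.0, limma-voom (limma 3.58.1), a fit of all 3 groups, a replicate block, shallow or thinned libraries, a threshold of 0.01 and each library left out.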

Additional observations from a re-analysis of the deposited data

Results flagged for a closer look

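A library stood apart from the rest of its group, by Dixon's test at the 95% level, in 15 of 150 sets of values, where chance gives about 7.5. Of these, 9 came from control libraries' gene levels. Control replicate 5 was highest for TBX20 at 51.0 CPM, kbtbd7 at 27.7 CPM, hsd3b1 at 35.9 CPM and DAZL at 511 CPM. Control replicate 3 was highest for spef1 at 187 CPM, casp8 at 29.4 CPM and FOSB at 42.3 CPM, and lowest for SOX9 (ENSDARG00000043923) at 2.83 CPM. Control replicate 1 was highest for SYCP3 at 463 CPM.

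Among recovering libraries, replicate 1 was highest for PLOD2 at 86.9 CPM, where the next library had 21.6 CPM, and lowest for SPATA4 at 128 CPM. Replicate 2 was highest for igf3 at 49.5 CPM, replicate 5 for RDH10 (ENSDARG00000058730) at 270.9 CPM and replicate 3 for mki67 at 1027 CPM. The remaining set was library size, where control replicate 5 held 48646941 counts and the next control 11525600.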

How the results depend on the processing

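The number of calls depended on the processing. In every alternative, each of the 1254 genes that could still be tested kept its sign. These genes were picked for their difference in the same libraries, so the kept signs are no test of direction. The total was 710 with no filter on low counts (556 up, 154 down), 3391 with DESeq2 (2191 up, 1200 down), 1978 with limma-voom (734 down), 96 in the fit of all 3 groups (89 up, 7 down) and 18 at an adjusted p under 0.01 (17 up, 1 down). Total-count scaling gave 590 falls. The fits without 1 library ranged from 8 to 2710 calls, 6 to 1901 of them up and 2 to 809 down. Fewer samples enter those fits. A replicate block needs same-numbered samples, so recovering replicate 2 was left out of it. That fit gave 894 calls, 770 up and 124 down, where leaving out recovering replicate 2 alone gave 927, 737 up and 190 down. Same-numbered samples of the 2 groups had a mean correlation of deviations of 0.108 over 4 pairs, from -0.0443 to 0.216, and differently numbered ones of -0.0269. Not every pair was over 0.1 and not every sample correlated best with its own number, so the numbers were not taken as pairs. Of the 54 named genes called, 53 were called with RLE scaling, 52 with total counts, 53 with DESeq2, 50 with limma-voom, 38 with the block and 9 in the fit of all 3 groups. CYP26A1 and mki67, neither of them called, changed sign: CYP26A1 was at -0.0086 with total counts and ran from -0.085 to 0.36 without 1 library, and mki67 ran from -0.18 to 0.0099. The causes were not tested. In the shallowest library, 3 counts equal 0.369 CPM, which limits statements on genes near that level.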

Other observations

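Gene families were collected by their name prefix after the values had been seen, so their counts are a description. Among all genes tested, 4.15% rose and 1.85% fell. The families described below are only some of those collected. Among the others, 2 of 11 laminins (18.2%), 2 of 10 S100 proteins (20%), 4 of 44 collagens (9.09%) and 2 of 34 integrins (5.88%) rose. Of 333 solute carriers, 12 rose (3.6%) and 5 fell (1.5%). Of 70 ribosomal proteins, 43 ubiquitin-specific peptidases and 11 cathepsins, 0 were called. Their median log2 fold changes were 0.60, -0.13 and 0.69 in that order, against 0.01 over all genes tested. Of 12 tubulin genes tested, 5 rose, or 41.7%. Beside tuba8l3 these were tuba5, with 102, 114, 113 and 97.4 CPM in controls and 412, 324, 219, 529.8 and 203 CPM in recovering testes, and tuba8l4, with 312 to 378 CPM and 458 to 960.3 CPM, TUBA1A and tuba8l5. Their log2 fold changes against the same controls in depleted testes were 5.51 for tuba8l3, 4.45 for tuba8l5, 1.57 for tuba5, 0.51 for tuba8l4 and -0.06 for TUBA1A. There tuba8l4 (SE 0.27, edgeR adjusted p = 0.126) and TUBA1A (SE 0.56, edgeR adjusted p = 0.928) were not called. These genes are close paralogs, so reads may have been split among them. Of 14 protein disulfide isomerases and prolyl and lysyl hydroxylases, which fold and modify secreted proteins and collagen, 4 rose, or 28.6% (P4HA1, PDIA5, PLOD2 and pdia2). Of 11 annexins, which bind membranes in the presence of calcium, ANXA11, anxa13 and anxa5b rose, or 27.3%.

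Of 13 intraflagellar transport genes, which carry cargo along the growing axoneme, IFT57, IFT46 and ift74 fell, or 23.1% against 1.85% of all genes, and IFT57 went from 298 to 353 CPM in controls to 204 to 295 CPM in recovering testes. Of 30 CFAP genes, CFAP45 and CFAP97 fell, or 6.67%, CFAP45 by 0.69 on the log2 scale.

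The pancreatic protease gene prss1 had 3.01 to 23.5 CPM in controls, 673 and 1376 CPM in recovering replicates 2 and 5, and 2.99 to 11.9 CPM in the other recovering libraries. The summed level of the list that holds prss1 was also high in recovering replicate 1, at 1350 CPM, against 73.3 to 257 CPM in controls.

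The largest called log2 fold change of all was that of GGACT (ENSDARG00000038248), which had 4 counts in control replicate 1 and 0 in the other controls. It had 0 counts in recovering replicate 1 and 269, 295, 191 and 356 counts in replicates 2 to 5. GGACT (ENSDARG00000070579), under the same symbol, was not tested and had 0 to 3 counts in controls and 1, 69, 0, 71 and 112 in recovering replicates 1 to 5. GGACT (ENSDARG00000070581) had 0, 2, 2 and 9 counts in controls and 4, 53, 72, 73 and 111 in recovering testes. All 3 were lowest in recovering replicate 1 or 3.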
